A study of Mus musculus with 6 samples.

Results

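Collagens are the proteins that give the extracellular matrix its tensile strength, and they are made together with a set of enzymes that modify, fold, trim and crosslink them. The genes described here are the 44 protein-coding mouse genes with a collagen chain symbol (Col, a type number, a and a chain number) and 14 genes of collagen processing: P4ha1, P4ha2 and P4ha3, Plod1, Plod2 and Plod3, Lox and Loxl1 to Loxl4, Serpinh1, Bmp1 and Pcolce. They were chosen by symbol and biotype and make up 58 of the 52550 Ensembl genes in the count tables. The 3′ ends of messenger RNA were counted in cardiomyocytes taken from mouse hearts on postnatal day 1 and cultured, in 3 GR-cKO libraries and 3 control libraries. GR-cKO stands for conditional deletion of the glucocorticoid receptor, the steroid-activated transcription factor encoded by Nr3c1, in cardiomyocytes, and control is the genotype the labels call ctrl. All 6 libraries came from cells put through a magnetic sort for cardiomyocytes and cultured for 48 hours in medium with 5% horse serum and 10% FBS, then for 24 hours without serum. No glucocorticoid or other agent is named in the labels for either group. The sources used here do not give the promoter that drives the deletion, the deleted exon or the number of animals behind each library. The titles call the 3 libraries of a group biological replicates without saying whether they came from separate animals or cultures, so p-values measure the spread among these libraries only.

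Procollagen chains are made in the endoplasmic reticulum, where prolyl 4-hydroxylases and lysyl hydroxylases modify them with oxygen, iron and alpha-ketoglutarate as cosubstrates, and where the chaperone HSP47 assists the triple helix. Outside the cell, proteases remove the propeptides and lysyl oxidases start the crosslinks. In the heart, fibroblasts are the main source of fibrillar collagen, while type IV collagen forms the network of the basement membrane around each cardiomyocyte and capillary. Glucocorticoids are known to lower collagen synthesis in cultured fibroblasts, and several of the modifying enzymes, P4ha1, P4ha2, Plod1, Plod2, Lox and Loxl2 among them, are known to be induced by low oxygen.

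The libraries held 19371508 to 22583596 gene counts each. Levels are CPM, the share of a library's gene counts on the usual CPM scale, after TMM scaling. Each tag stands for the 3′ end of a transcript, so levels were not divided by length. Nr3c1 stood at 46.2, 42.8 and 44.1 CPM in the GR-cKO libraries, against 68.2, 73.9 and 72.4 CPM in the control libraries. It was lower in every GR-cKO library than in any control library (edgeR, adjusted p = 3.3e-06), though tags from the end of the transcript may lie away from the deletion. Xist, the RNA of the inactive X chromosome, averaged 0.0332 ± 0.0575 CPM in GR-cKO and 279 ± 12.1 CPM in control (SD, n = 3 each), so sex and genotype cannot be told apart in these libraries. Defining cardiomyocyte genes were abundant in both groups, with Tnnt2 at 9164 ± 217 CPM in GR-cKO and 8251 ± 124 CPM in control. Genes that mark fibroblasts were counted as well, and all 15 of them summed to 4107 ± 73.6 CPM in GR-cKO and 3659 ± 88.6 CPM in control. In such bulk samples fewer cells of a type and less RNA per cell cannot be told apart.

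Among collagens and their modifying enzymes, higher levels in GR-cKO outnumbered lower ones. Of the 58 genes, 47 had enough counts to be tested, and 21 of these rose while 3 fell (edgeR quasi-likelihood test, adjusted p below 0.05 over all 14386 genes tested). The same threshold was passed by 14.8% of all genes tested, with 7.63% higher and 7.19% lower. By kind, 14 of 33 collagens rose and 3 fell, and 7 of 14 processing genes rose and none fell. Among the 23 that did not pass, an unadjusted p below 0.05 was found for 2, Col5a2 and Col26a1, both with positive log2 fold changes, and DESeq2 also called no processing gene lower. The median log2 fold change, GR-cKO over control, was 0.18 over the 47 genes and -0.01 over all genes tested. The genes that passed were mostly abundant ones: of 31 members with a mean of at least 20 CPM, 19 rose and 2 fell, where 21.3% of all 6399 genes at that level passed, 10.9% as higher and 10.4% as lower. In 27 of the 47 genes the groups were fully separate, as they were in 29.9% of all genes tested. Each member that passed had at least 3.4 CPM in every library, so none passed the filter on low counts through 1 group alone.

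**Figure D1:**
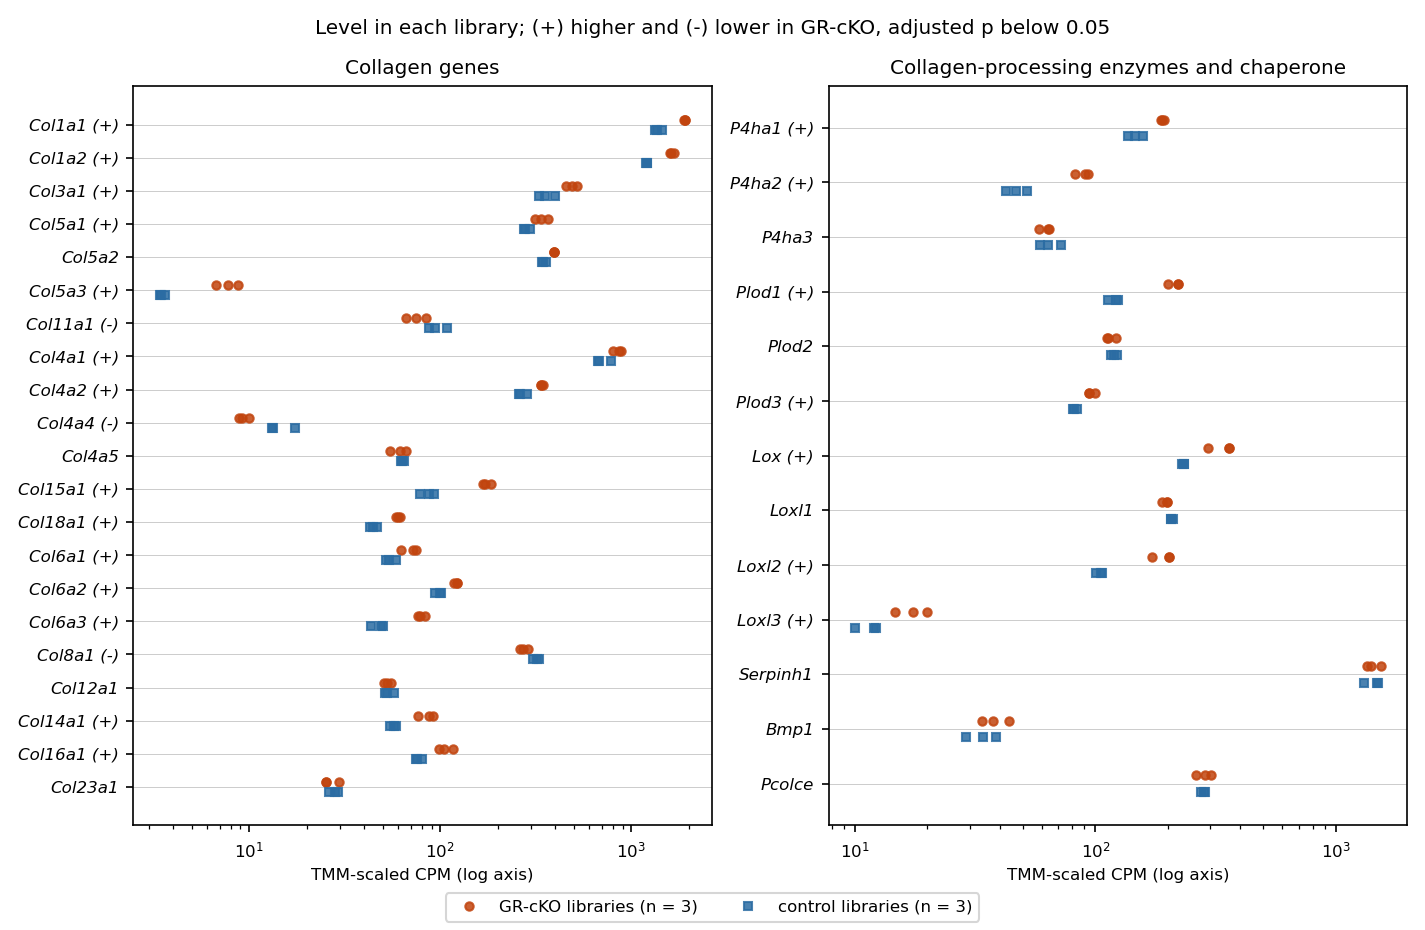
Level of each collagen gene (left) and processing gene (right) that passed the test or had a mean of at least 20 CPM, in TMM-scaled CPM on a log axis, with GR-cKO libraries as circles and control libraries as squares (n = 3 each). The 3 GR-cKO circles of Col15a1, P4ha2, Plod1 and Loxl2 lie well to the right of the control squares, those of Col11a1, Col4a4 and Col8a1 to the left, and those of Serpinh1, Plod2 and Col12a1 overlap them.

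All 44 collagens together summed to 7296, 7130 and 7132 CPM in the GR-cKO libraries, against 5647, 5713 and 5538 CPM in the control libraries. The sum over the 3 most abundant chains, Col1a1, Col1a2 and Col3a1, was 4029 ± 38.7 CPM in GR-cKO and 2945 ± 99.1 CPM in control (SD, n = 3 each). These 3 chains made up 56.1% of collagen tags in GR-cKO and 52.3% in control. The other 41 collagens summed to 3157 ± 96.2 CPM in GR-cKO and 2687 ± 93.8 CPM in control, so the higher total did not rest on the 3 major chains alone. The 14 processing genes summed to 3260 ± 53.5 CPM in GR-cKO and 2881 ± 113 CPM in control.

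Among fibrillar collagens, which assemble into the striated fibrils of the interstitium, 5 rose and 1 fell of 9 tested. Col1a1 (ENSMUSG00000001506, GRCm38 chromosome 11, 94936224 to 94953042, plus strand) and Col1a2 (ENSMUSG00000029661, chromosome 6, 4504814 to 4541544, plus strand) encode the chains of type I collagen, the main fibrillar collagen of the heart. Col1a1 stood at 1922, 1915 and 1896 CPM in GR-cKO libraries, against 1338, 1450 and 1367 CPM in control libraries, a log2 fold change of 0.46 ± 0.06 (SE; edgeR, adjusted p = 1.63e-06). Col1a2 stood at 1594, 1617 and 1675 CPM in GR-cKO, against 1188, 1202 and 1210 CPM in control (0.44 ± 0.06, adjusted p = 3.01e-06). Col3a1, which forms thinner fibrils with type I collagen, stood at 520, 456 and 491 CPM in GR-cKO, against 329, 399 and 353 CPM in control (0.44 ± 0.07, adjusted p = 0.000117). The log2 fold changes of these 3 chains lay between 0.44 and 0.46, and in each the lowest GR-cKO library was above the highest control library.

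Type V collagen, which is known to nucleate type I fibrils, had smaller log2 fold changes in its abundant chains. Col5a1 rose to 365, 335 and 315 CPM in GR-cKO libraries, against 273, 278 and 296 CPM in control libraries (log2 fold change 0.26 ± 0.07, edgeR adjusted p = 0.0106). This call was lost without control replicate 2 (0.25, adjusted p = 0.0626) and without GR-cKO replicate 1 (0.21, adjusted p = 0.079). Col5a2 stood at 396, 393 and 395 CPM in GR-cKO, against 346, 357 and 341 CPM in control, with a log2 fold change of 0.18 ± 0.06. The groups did not overlap, but the adjusted p of 0.0505 lay just outside the threshold. It was inside the threshold under several alternatives, between 0.00719 with DESeq2 and 0.0478 with the replicate number as a block. It stayed outside without any filter on low counts (0.0752) and in each fit that left out 1 library (0.0713 to 0.143). Col5a3, the scarce chain of the family, had 6.73, 7.72 and 8.76 CPM in GR-cKO, against 3.4, 3.61 and 3.46 CPM in control. That is a 2.21-fold rise (log2 fold change 1.15 ± 0.23, adjusted p = 0.000963).

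Col11a1, a minor fibrillar chain best known from cartilage, was the fibrillar collagen that fell. It stood at 84.3, 74.8 and 66.4 CPM in GR-cKO libraries, against 109, 93.4 and 87.3 CPM in control libraries (log2 fold change -0.36 ± 0.10, edgeR adjusted p = 0.0104). The highest GR-cKO library lay just below the lowest control library. The call was lost when libraries were scaled by the ERCC spike-in RNAs (-0.26, adjusted p = 0.128), without control replicate 1 (-0.27, adjusted p = 0.0867) and without GR-cKO replicate 3 (-0.28, adjusted p = 0.0743). Col2a1, the main chain of cartilage, was near the limit of counting at 0.543 to 1.25 CPM over all 6 libraries. Col27a1 averaged 6.82 ± 2.2 CPM in GR-cKO and 7.4 ± 1.91 CPM in control and did not pass either.

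Of 6 type IV chains 2 rose and 1 fell. Col4a1 (chromosome 8, 11198423 to 11312826, minus strand) and Col4a2 (chromosome 8, 11312805 to 11449287, plus strand) encode the chains of the basement membrane network found in nearly all tissues. They stand head to head, and their annotated 5′ ends overlap by 22 bases, so their promoter windows (RefSeq, GRCm38.p6, from 250 bases before to 50 bases after each start) share 78 bases read in opposite directions. They are shown because this pair of genes shares its control region, with matches to the GC box GGGCGG on either strand in capitals.
Col4a1, chr8:11312777-11313076, minus strand: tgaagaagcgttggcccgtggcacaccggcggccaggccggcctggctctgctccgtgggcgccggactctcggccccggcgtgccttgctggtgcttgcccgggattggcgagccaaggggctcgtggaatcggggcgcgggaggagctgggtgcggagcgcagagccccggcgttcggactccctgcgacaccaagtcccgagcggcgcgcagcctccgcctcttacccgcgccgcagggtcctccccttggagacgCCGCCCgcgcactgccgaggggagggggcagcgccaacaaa
Col4a2, chr8:11312555-11312854, plus strand: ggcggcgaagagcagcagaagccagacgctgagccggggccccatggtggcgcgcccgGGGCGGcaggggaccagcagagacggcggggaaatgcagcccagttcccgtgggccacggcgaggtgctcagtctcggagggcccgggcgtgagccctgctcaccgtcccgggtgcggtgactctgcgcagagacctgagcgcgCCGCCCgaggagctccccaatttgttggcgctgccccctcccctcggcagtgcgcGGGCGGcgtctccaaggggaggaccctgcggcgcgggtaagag
The Col4a1 window held 1 match and the Col4a2 window 3. The Col4a1 match lies in the shared bases and is the same site as 1 of the 3 in Col4a2. At least 1 match was held by 35.7% of all 32851 promoter windows of the same length and by 65.2% of the windows of members.

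Both genes of the pair were higher in GR-cKO. Col4a2 stood at 336, 347 and 336 CPM in GR-cKO libraries, against 284, 257 and 261 CPM in control libraries (log2 fold change 0.34 ± 0.07, edgeR adjusted p = 0.000547). Col4a1 stood at 881, 862 and 803 CPM in GR-cKO, against 784, 681 and 667 CPM in control (0.26 ± 0.07, adjusted p = 0.0102). The lowest GR-cKO library of Col4a1 was close to the highest control library. Its call was lost without control replicate 2 (0.23, adjusted p = 0.0795), control replicate 3 (0.21, adjusted p = 0.0728) or GR-cKO replicate 2 (0.25, adjusted p = 0.0536).

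None of the chains of the other type IV networks, best known from kidney and smooth muscle, passed as higher. Col4a4 fell to 10, 8.87 and 9.17 CPM in GR-cKO libraries, against 13.3, 17.3 and 13.1 CPM in control libraries (log2 fold change -0.64 ± 0.17, edgeR adjusted p = 0.00974). Without control replicate 2, the highest of the 6 libraries, the adjusted p was 0.1 and the log2 fold change -0.49. Col4a3, its partner chain, averaged 1.87 ± 0.486 CPM in GR-cKO and 2.42 ± 0.535 CPM in control and did not pass, and a gene on the opposite strand overlaps it near its 3′ end, so its counts are uncertain. Col4a5 and Col4a6 lie on the X chromosome, where sex could also change a level. Col4a5 stood at 65.9, 54.5 and 61.9 CPM in GR-cKO, against 63.4, 64.6 and 62.2 CPM in control, with a 95% interval of its log2 fold change from -0.25 to 0.12. Col4a6 averaged 9.06 ± 1.21 CPM in GR-cKO and 10.5 ± 1.46 CPM in control, and the groups overlapped in both genes.

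Collagens XV and XVIII link basement membranes to the matrix beneath and carry heparan or chondroitin sulfate chains. Col15a1 (ENSMUSG00000028339, chromosome 4, 47208161 to 47313167, plus strand), which is abundant around muscle fibres and capillaries, had the largest log2 fold change of the abundant collagens. It stood at 167, 184 and 172 CPM in GR-cKO libraries, against 87.3, 92.8 and 78.7 CPM in control libraries (2.02-fold, log2 fold change 1.02 ± 0.08, edgeR adjusted p = 1.51e-09). Col18a1, the source of endostatin, stood at 60.3, 61.3 and 58.9 CPM in GR-cKO, against 46.9, 44.7 and 42.8 CPM in control (0.43 ± 0.09, adjusted p = 0.00131). Both lay above every control library in every GR-cKO library. Col7a1, the collagen of anchoring fibrils in skin, was scarce, at 2.14 ± 0.387 CPM in GR-cKO and 2.14 ± 1.01 CPM in control.

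The chains of type VI collagen, which forms beaded filaments close to the cell surface, rose in 3 of 4 genes tested. Col6a1 stood at 75.1, 62.3 and 72.4 CPM in GR-cKO libraries, against 58.4, 53.7 and 52.1 CPM in control libraries (log2 fold change 0.35 ± 0.09, edgeR adjusted p = 0.00933, and 0.064 without GR-cKO replicate 1, where the log2 fold change was 0.3). Col6a2 stood at 123, 123 and 118 CPM in GR-cKO, against 100, 101 and 93.8 CPM in control (0.31 ± 0.07, adjusted p = 0.00529). Col6a3 moved most of the family, to 83.3, 78.1 and 76.3 CPM in GR-cKO, against 43.5, 50.3 and 49.1 CPM in control (0.73 ± 0.09, adjusted p = 1.58e-06). The groups did not overlap in any of these 3 genes. Of the later-described chains, Col6a6 was at 0.281 to 1.58 CPM over all libraries and did not pass, and Col6a4 and Col6a5 were under the filter on low counts.

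Among collagens that attach to the surface of fibrils, 2 rose and none fell of 6 tested. Col14a1, which regulates fibril diameter, stood at 87.6, 76.6 and 91.5 CPM in GR-cKO libraries, against 57.3, 58.5 and 54.3 CPM in control libraries (log2 fold change 0.59 ± 0.09, edgeR adjusted p = 2.89e-05). Col16a1 stood at 116, 104 and 98 CPM in GR-cKO, against 74.9, 75.5 and 80.1 CPM in control (0.46 ± 0.08, adjusted p = 0.00024). Col12a1, a close relative of Col14a1 in structure, did not pass. It stood at 55.1, 50.8 and 52.4 CPM in GR-cKO, against 57.4, 51.5 and 52.5 CPM in control, with a 95% interval of its log2 fold change from -0.21 to 0.16. The 3 chains of type IX collagen, a cartilage collagen, averaged between 1.22 and 2.29 CPM in GR-cKO and between 1.38 and 2.41 CPM in control, and none passed. Col9a3, one of them, is uncertain because Tcfl5 overlaps it on the opposite strand near its 3′ end.

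Type VIII collagen, a short-chain collagen of vessels and endothelial membranes, did not rise with the fibrillar chains. Col8a1 fell to 288, 261 and 272 CPM in GR-cKO libraries, against 328, 320 and 307 CPM in control libraries (log2 fold change -0.22 ± 0.07, edgeR adjusted p = 0.0269). The groups did not overlap, but the call was lost in 5 of 13 alternatives. These were ERCC scaling (-0.12, adjusted p = 0.466) and the fits without control replicate 1 (-0.2, adjusted p = 0.0835), control replicate 2 (-0.21, 0.103), GR-cKO replicate 2 (-0.18, 0.158) or GR-cKO replicate 3 (-0.21, 0.0637). Col8a2 was scarce, at 0.564 ± 0.314 CPM in GR-cKO and 0.708 ± 0.375 CPM in control. Of the transmembrane collagens, Col23a1 stood at 29.5, 25.1 and 25.3 CPM in GR-cKO, against 26.2, 28.1 and 29.2 CPM in control, and Col13a1 averaged 2.35 ± 0.44 CPM in GR-cKO and 2.49 ± 1.11 CPM in control. Neither passed. Col26a1 had the largest fitted log2 fold change of the 47 genes, 1.43 ± 0.63, but it was near the counting limit at 1.76, 1.25 and 0.618 CPM in GR-cKO, against 0.336, 0.656 and 0.346 CPM in control, and did not pass (adjusted p = 0.145).

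The 11 collagens under the filter were Col6a4, Col6a5, Col10a1, Col11a2, Col17a1, Col19a1, Col20a1, Col22a1, Col24a1, Col25a1 and Col28a1. Each had a count in at least 1 library and none exceeded 0.876 CPM in any library. Where a library had no count, a level below 0.136 to 0.155 CPM, set by 3 counts and by counting error alone, remains possible. They include chains known from epithelium and growth plate cartilage, such as Col17a1 of hemidesmosomes and Col10a1 of hypertrophic cartilage.

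**Figure D2:**
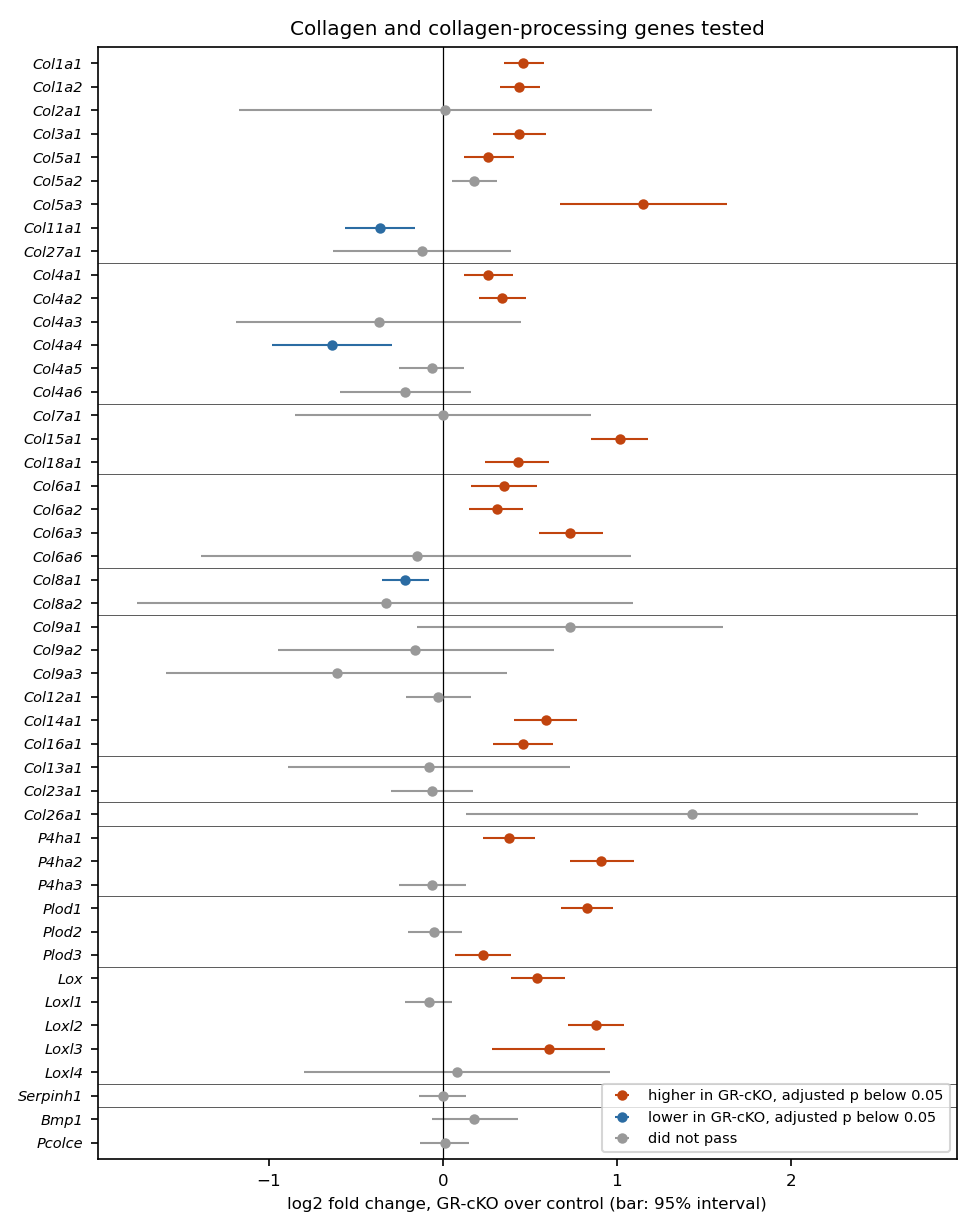
Log2 fold change of GR-cKO over control for the 47 genes tested, ordered by class (horizontal lines separate the classes), with bars for 95% intervals and colour for the result of edgeR's test. Intervals are narrow for abundant chains such as Col1a1 (0.35 to 0.58) and wide for scarce ones such as Col8a2 (-1.76 to 1.09).

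In each family of enzymes that modify collagen, some members rose in GR-cKO and at least 1 did not pass. Prolyl 4-hydroxylase makes the hydroxyprolines that hold the triple helix together, and its catalytic subunit comes as P4ha1, P4ha2 or P4ha3. P4ha2 (ENSMUSG00000018906, chromosome 11, 54100095 to 54131665, plus strand) stood at 92.8, 90.6 and 81.9 CPM in GR-cKO libraries, against 42.5, 46.6 and 51.7 CPM in control libraries (1.88-fold, log2 fold change 0.91 ± 0.09, edgeR adjusted p = 9.91e-08). P4ha1 (ENSMUSG00000019916, chromosome 10, 59323296 to 59373304, plus strand) stood at 193, 188 and 190 CPM in GR-cKO, against 137, 157 and 146 CPM in control (0.38 ± 0.07, adjusted p = 0.000472). P4ha3 did not pass, at 58.5, 63.4 and 64 CPM in GR-cKO, against 63.5, 58.7 and 71.8 CPM in control, with a 95% interval of its log2 fold change from -0.25 to 0.13.

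Lysyl hydroxylases act on different parts of the chain. Plod1 (ENSMUSG00000019055, chromosome 4, 147909753 to 147936767, minus strand), which acts on lysines of the helix, stood at 220, 220 and 200 CPM in GR-cKO libraries, against 122, 124 and 113 CPM in control libraries (1.78-fold, log2 fold change 0.83 ± 0.07, edgeR adjusted p = 9.74e-09). Plod2, which acts on the telopeptides, stood at 122, 112 and 113 CPM in GR-cKO, against 123, 116 and 120 CPM in control, with overlapping groups and a 95% interval of its log2 fold change from -0.20 to 0.11. Plod3, which also adds sugars to hydroxylysine, stood at 93.6, 94.2 and 100 CPM in GR-cKO, against 80.5, 84.1 and 81.1 CPM in control (0.23 ± 0.08, adjusted p = 0.0467). The Plod3 groups did not overlap, yet its call lay just inside the threshold. It was lost without any filter on low counts (adjusted p = 0.0694) and when any single library was left out, namely control replicate 1 (adjusted p = 0.117), 2 (0.101) or 3 (0.106) or GR-cKO replicate 1 (0.0715), 2 (0.0924) or 3 (0.129), where the log2 fold change lay between 0.2 and 0.25.

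The promoter windows of P4ha1, P4ha2, P4ha3 and Plod1 are shown, chosen with the levels known, to set 3 modifying genes that rose beside P4ha3, which did not pass. They come from RefSeq (GRCm38.p6, 250 bases before to 50 bases after the RefSeq start), and capitals mark ACGTG or GCGTG on either strand, the core that hypoxia-inducible factors recognise.
P4ha1, chr10:59323046-59323345, plus strand: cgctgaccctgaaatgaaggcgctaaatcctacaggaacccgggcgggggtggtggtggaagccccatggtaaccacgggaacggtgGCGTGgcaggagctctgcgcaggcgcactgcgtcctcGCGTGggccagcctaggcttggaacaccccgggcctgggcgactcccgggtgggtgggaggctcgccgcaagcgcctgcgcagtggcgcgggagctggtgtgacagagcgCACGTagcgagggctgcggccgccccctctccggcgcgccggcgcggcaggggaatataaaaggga
P4ha2, chr11:54100674-54100973, plus strand: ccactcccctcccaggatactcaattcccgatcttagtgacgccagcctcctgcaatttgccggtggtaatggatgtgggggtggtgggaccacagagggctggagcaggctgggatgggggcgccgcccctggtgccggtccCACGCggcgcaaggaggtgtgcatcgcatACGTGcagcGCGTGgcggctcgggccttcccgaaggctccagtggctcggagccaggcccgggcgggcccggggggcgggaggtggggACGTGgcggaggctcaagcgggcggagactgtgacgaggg
P4ha3, chr7:100285270-100285569, plus strand: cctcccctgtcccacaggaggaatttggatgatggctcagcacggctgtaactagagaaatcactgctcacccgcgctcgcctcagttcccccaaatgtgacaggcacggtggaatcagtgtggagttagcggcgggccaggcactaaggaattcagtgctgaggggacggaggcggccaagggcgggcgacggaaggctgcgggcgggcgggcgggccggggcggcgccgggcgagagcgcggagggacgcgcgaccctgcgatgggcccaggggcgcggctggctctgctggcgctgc
Plod1, chr4:147936727-147937026, minus strand: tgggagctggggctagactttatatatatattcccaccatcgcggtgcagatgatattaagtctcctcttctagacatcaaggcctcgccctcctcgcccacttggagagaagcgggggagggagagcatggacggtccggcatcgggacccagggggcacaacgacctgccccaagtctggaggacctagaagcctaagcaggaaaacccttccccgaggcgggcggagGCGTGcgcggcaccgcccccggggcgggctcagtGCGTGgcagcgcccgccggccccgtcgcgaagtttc
There were 3 matches in the P4ha1 window, 4 in P4ha2, none in P4ha3 and 2 in Plod1, with overlapping matches counted separately. The Col4a1 and Col4a2 windows held 1 each. Of the other processing genes with a window, Plod3, which rose, held 4. Serpinh1, Pcolce and Loxl4, which did not pass, held 1 each, so P4ha3 does not stand for all processing genes that did not pass. Plod2, Lox, Loxl1, Loxl2, Loxl3 and Bmp1 had no window. Windows were given for 43 of the 58 members, 46 windows in all because a gene can have several starts. Of these 46 windows, 43.5% held such a core, as did 43.8% of all windows. Among members with a window, 11 of 18 windows of genes that rose held it, as did 6 of 18 windows of genes that were tested and did not rise. The full palindromic glucocorticoid response element, AGAACA followed after any 3 bases by TGTTCT, was in no member window and in 0.00913% of all windows, and AGAACA alone, on either strand, was in 4.35% of member windows and 19% of all windows. A match is a description of the sequence and shows no binding.

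Lysyl oxidases oxidise lysines so that collagen and elastin can crosslink. Loxl2 (ENSMUSG00000034205, chromosome 14, 69609068 to 69695834, plus strand), which also crosslinks type IV collagen, stood at 203, 202 and 172 CPM in GR-cKO libraries, against 107, 101 and 105 CPM in control libraries (1.84-fold, log2 fold change 0.88 ± 0.08, edgeR adjusted p = 1.18e-08). Lox, the founding member, stood at 361, 359 and 295 CPM in GR-cKO, against 229, 234 and 234 CPM in control (0.54 ± 0.08, adjusted p = 1.08e-05). In both genes GR-cKO replicate 3 was the lowest of its group and still above every control library. Loxl3 stood at 14.7, 17.5 and 20 CPM in GR-cKO, against 12.2, 10 and 12 CPM in control (0.61 ± 0.16, adjusted p = 0.00878). The Loxl3 call was lost without control replicate 2 (0.52, adjusted p = 0.0593) and without GR-cKO replicate 3 (0.5, adjusted p = 0.0548). Near its 3′ end it overlaps Htra2 on the opposite strand, so its counts are uncertain without a known strand setting. Loxl1, which acts mainly on elastic fibres, stood at 199, 198 and 190 CPM in GR-cKO, against 206, 210 and 207 CPM in control. It did not pass, although its groups did not overlap (95% interval of the log2 fold change from -0.22 to 0.05), and Loxl4 was scarce at 1.23 to 3.24 CPM.

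The chaperone and the propeptide-cleaving proteins did not pass. Serpinh1, which encodes HSP47, stood at 1350, 1394 and 1537 CPM in GR-cKO libraries, against 1312, 1484 and 1492 CPM in control libraries. Its log2 fold change was 0.00 ± 0.06 with a 95% interval from -0.14 to 0.13. Pcolce, which enhances removal of the C-propeptide, stood at 262, 286 and 303 CPM in GR-cKO, against 275, 284 and 286 CPM in control, with a 95% interval from -0.13 to 0.15. Bmp1, the protease that removes it, stood at 33.8, 37.5 and 43.9 CPM in GR-cKO, against 38.5, 34 and 28.9 CPM in control, with an interval from -0.06 to 0.43. The groups overlapped in all 3 genes and none passed.

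Ratios of tags between 2 genes of the same library do not depend on how libraries are scaled. In all, 14 ratios were computed, chosen after the levels had been seen, and they are given as descriptions. Some pairs of chains of one trimer kept close ratios. Col1a1 to Col1a2 was 1.17 ± 0.0379 in GR-cKO and 1.15 ± 0.0455 in control (SD, n = 3 each). Col4a1 to Col4a2 was 2.5 ± 0.118 in GR-cKO and 2.66 ± 0.1 in control. Col6a1 to Col6a2 was 0.576 ± 0.061 in GR-cKO and 0.557 ± 0.0246 in control. These groups overlapped, as did Col5a1 to Col5a2 and Col3a1 to Col1a1. No ratio was computed for Col6a3, which joins Col6a1 and Col6a2 in type VI collagen. Its log2 fold change was 0.73, against 0.35 for Col6a1 and 0.31 for Col6a2. The other 9 of the 14 ratios did not overlap between groups. Plod2 to Plod1 was 0.556, 0.507 and 0.567 in GR-cKO libraries, against 1, 0.938 and 1.06 in control libraries. Loxl2 to Loxl1 was 1.02, 1.02 and 0.903 in GR-cKO, against 0.523, 0.48 and 0.506 in control. P4ha1 to P4hb, the other subunit of the same enzyme, was 0.306, 0.291 and 0.29 in GR-cKO, against 0.217, 0.231 and 0.237 in control. Serpinh1 to Col1a1 was 0.747 ± 0.0564 in GR-cKO and 1.03 ± 0.0563 in control, and Col4a1 to Col4a4 was 90.9 ± 5.48 in GR-cKO and 49.8 ± 9.86 in control. The remaining non-overlapping ratios were Col15a1 to Col18a1, Col11a1 to Col1a1, Lox to Loxl1 and P4ha1 to P4ha2.

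**Figure D3:**
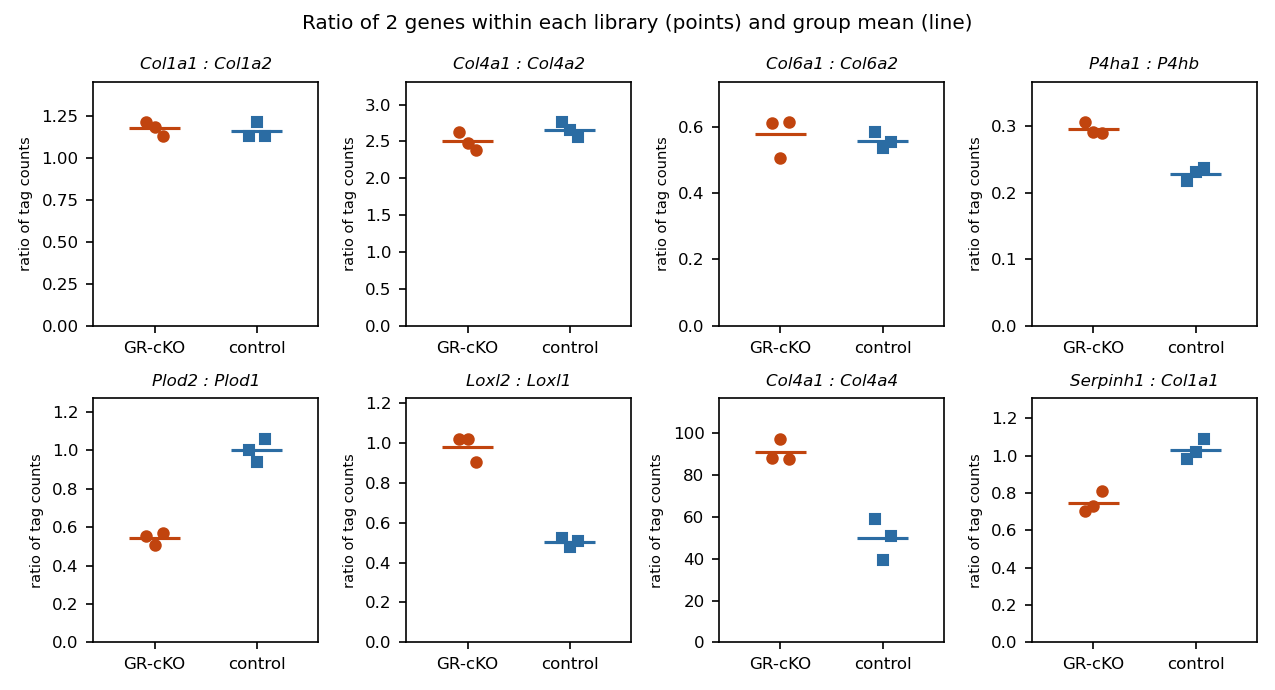
Ratio of the tag counts of 2 genes in each library for 8 of the 14 pairs, with GR-cKO as circles and control as squares (n = 3 each), the group mean as a line and each axis starting at 0. Col1a1 to Col1a2, Col4a1 to Col4a2 and Col6a1 to Col6a2 overlap between groups, while Plod2 to Plod1 is 0.544 ± 0.032 in GR-cKO and 1.0 ± 0.0621 in control (SD).

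Further genes of the collagen pathway passed in both directions. Over the lists for folding, secretion, propeptide removal, receptors and breakdown, 6 rose and 6 fell of 45 tested. That is 26.7%, against 14.8% of all genes tested and 21.3% of those with a mean of at least 20 CPM. The pooled share thus lay near that of the more abundant genes, but single lists differed. Folding had 0%, propeptide removal and receptors 25% each, secretion 33.3% and breakdown 50%. Of 12 genes for folding and modification in the endoplasmic reticulum, none passed by edgeR or by DESeq2, and 4 had an unadjusted p below 0.05 in edgeR, 1 higher and 3 lower. P4hb, the beta subunit of prolyl 4-hydroxylase, averaged 643 ± 12.3 CPM in GR-cKO and 641 ± 32.9 CPM in control, and the peptidyl-prolyl isomerase gene Fkbp10 averaged 241 ± 14.7 CPM in GR-cKO and 258 ± 7.22 CPM in control. Of 9 genes of secretion 3 fell. They were Kdelr2, a receptor that returns chaperones to the endoplasmic reticulum (log2 fold change -0.42 ± 0.07, adjusted p = 6.73e-05), and the COPII coat genes Sec24d (-0.36 ± 0.10) and Sec23a (-0.26 ± 0.08). Of 4 tested proteases and enhancers of propeptide removal 1 fell, Adamts14, which cleaves the N-propeptide, at 5.87 ± 1.1 CPM in GR-cKO and 10.2 ± 1.44 CPM in control. Adamts2, the main N-propeptide protease, averaged 121 ± 0.936 CPM in GR-cKO and 105 ± 6.25 CPM in control and did not pass (adjusted p = 0.0617). A gene that missed the threshold is not thereby shown to be unchanged.

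Of 8 collagen receptors 2 rose. Itga1, the alpha subunit of the integrin that prefers type IV collagen, averaged 174 ± 14.9 CPM in GR-cKO and 113 ± 9.45 CPM in control (log2 fold change 0.63 ± 0.08, edgeR adjusted p = 3.96e-06). Itga11, the subunit of a receptor for fibrillar collagen, had a log2 fold change of 0.91 ± 0.23. The discoidin receptor Ddr2 averaged 60.5 ± 3.9 CPM in GR-cKO and 71.8 ± 5.8 CPM in control and did not pass, and it has an opposite-strand overlap near its 3′ end as well. Of 12 genes of collagen breakdown and its inhibitors 4 rose and 2 fell. Timp1, an inhibitor of matrix metalloproteinases, rose to 305 ± 19 CPM in GR-cKO, against 199 ± 13 CPM in control, whereas Timp2 fell to 874 ± 56.6 CPM in GR-cKO, against 1149 ± 41 CPM in control. Timp1 lies on the X chromosome, where sex could also change a level. The protease genes that rose were Mmp14, which anchors at the cell surface (log2 fold change 0.25 ± 0.08), and the scarce Mmp3 (1.13 ± 0.32) and Mmp8 (2.41 ± 0.60). Mmp8 had 40, 84 and 39 counts in GR-cKO and 21, 8 and 2 counts in control, so it passed the filter on low counts through the GR-cKO libraries. Timp3 fell (-0.20 ± 0.06), but it overlaps Syn3 on the opposite strand near its 3′ end, so its counts are uncertain too.

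The partners of type IV collagen in the basement membrane moved with it in part, with 5 higher and 1 lower of 13 tested. That is 46.2%, against 14.8% of all genes tested and 21.3% of those with a mean of at least 20 CPM. Hspg2, which encodes perlecan, averaged 806 ± 51.1 CPM in GR-cKO and 638 ± 55.1 CPM in control (log2 fold change 0.34 ± 0.07, edgeR adjusted p = 0.00102). Among laminin genes, Lama4 (0.34 ± 0.08), Lama5 (0.75 ± 0.13) and Lamb1 (0.26 ± 0.06) also rose. Nid2, a linker between laminin and type IV collagen, fell (-0.33 ± 0.10), with an overlap of Rtraf on the opposite strand near its 3′ end, while its relative Nid1 averaged 134 ± 15.9 CPM in GR-cKO and 140 ± 5.46 CPM in control. Pxdn, which forms sulfilimine crosslinks in type IV collagen, averaged 101 ± 4.44 CPM in GR-cKO and 95.8 ± 4.54 CPM in control and did not pass.

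**Figure D4:**
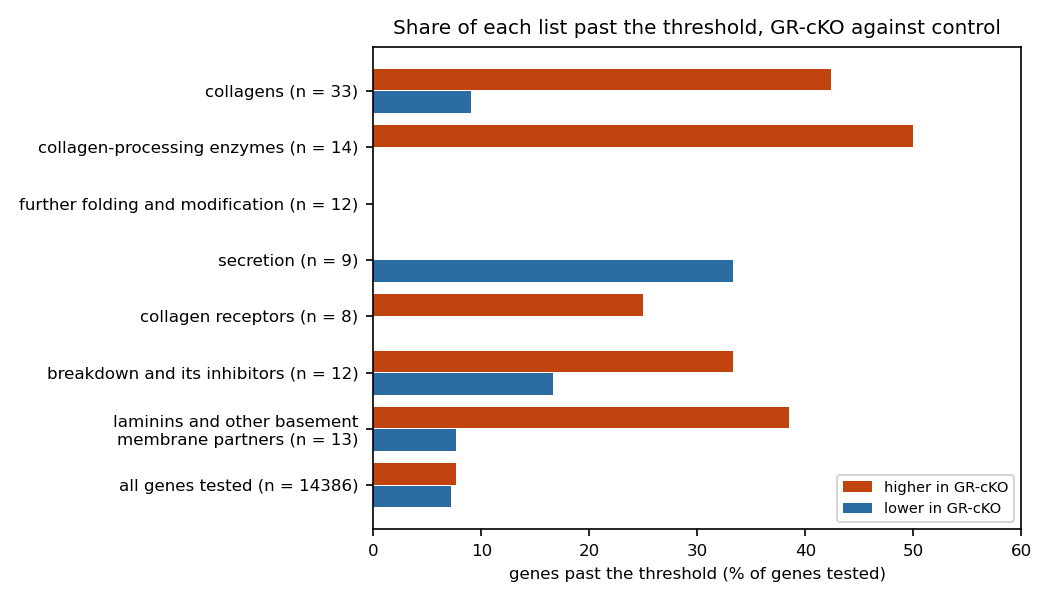
Share of the tested genes of each list that were higher or lower in GR-cKO than in control at an adjusted p below 0.05, in percent, with the share among all 14386 genes tested at the bottom. Processing enzymes reach 50% higher with none lower, whereas the further folding list has neither.

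Markers of other cell types also differed between the groups. The marker counts here and below stand against 14.8% of all genes tested that passed, and 21.3% of those with a mean of at least 20 CPM. Of 15 fibroblast markers 6 rose and 1 fell, with a median log2 fold change of 0.20. Their summed level ranged from 4048 to 4189 CPM in GR-cKO libraries and from 3558 to 3726 CPM in control libraries, a ratio of means of 1.12, where the 44 collagens had a ratio of 1.28. Most of that sum came from Vim and Fn1, which are not confined to fibroblasts, so the ratio mainly reflects them. Vim averaged 1663 CPM in GR-cKO and 1382 CPM in control, and Fn1 1219 CPM in GR-cKO and 1061 CPM in control. The markers that rose were Postn, Mfap5, Cygb, Dpt, Vim and Fn1, with Postn, a matrix protein, at 167 ± 9.5 CPM in GR-cKO and 67 ± 0.885 CPM in control. The marker that fell was Dcn, the proteoglycan decorin, at 427 ± 28.9 CPM in GR-cKO and 550 ± 11 CPM in control. Pdgfra, a receptor that defines fibroblasts, averaged 39.2 ± 2.82 CPM in GR-cKO and 47.3 ± 7.87 CPM in control and did not pass (edgeR adjusted p = 0.116). Tcf21, a transcription factor of the lineage, averaged 30.2 ± 5.66 CPM in GR-cKO and 25 ± 1.92 CPM in control and did not pass either (adjusted p = 0.182), and the groups overlapped in both genes. Of 11 endothelial markers 7 rose and 2 fell, and the sum of all 11 ranged from 1269 to 1367 CPM in GR-cKO and from 1010 to 1044 CPM in control. The 2 that fell were Emcn (log2 fold change -0.64 ± 0.07) and Npr3 (-0.60 ± 0.10). Markers of smooth muscle and pericytes rose in 6 of 10 genes. Their sums were 4470 to 4689 CPM in GR-cKO and 3767 to 3875 CPM in control. Most of each sum came from Acta2, at 3835 ± 116 CPM in GR-cKO and 3294 ± 54.8 CPM in control. The 4 that did not pass all had negative log2 fold changes. Of these 4, Tagln and Myh11 had an unadjusted p below 0.05 in edgeR. No fibroblast, endothelial or smooth muscle marker was at 0 in all libraries. The part of these cell types in the collagen result was not tested.

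Epicardial markers summed to 95 to 114 CPM in GR-cKO libraries and 101 to 106 CPM in control libraries, with 2 higher and 2 lower of 7. These similar sums hide opposite changes. Krt19 averaged 41.4 ± 3.96 CPM in GR-cKO and 8.45 ± 1.42 CPM in control, and Tbx18 44.7 ± 3.99 and 65.5 ± 2.86 CPM. Log2 fold changes were negative in 5 of the 7 genes, with a median of -0.55. Leukocyte markers, of which 4 of 8 could be tested and 2 rose, summed to 34.9 to 54.9 CPM in GR-cKO and 13.3 to 17.7 CPM in control. Most of each sum came from Lyz2, at 40.6 ± 9.66 CPM in GR-cKO and 12.9 ± 2.25 CPM in control. The pan-leukocyte gene Ptprc was at 0.407 ± 0.54 CPM in GR-cKO and 0.0156 ± 0.0271 CPM in control. Its counts were 2, 2 and 20 in GR-cKO, so that mean rests mainly on replicate 3. Cd68 and Csf1r did not pass. One of the pair that rose, Tyrobp, had 39, 26 and 41 counts in GR-cKO and 4, 1 and 7 counts in control, and so passed the filter on low counts through the GR-cKO libraries. Of 6 Schwann cell and neural markers 3 could be tested and none passed by edgeR or by DESeq2. They summed to 15 to 22.1 CPM in GR-cKO and 23.2 to 24.2 CPM in control, and 1 of the 3, Dbh, had an unadjusted p below 0.05. Cardiomyocyte markers themselves rose in 8 of 12 genes and fell in 1, with sums of 44998 to 47029 CPM in GR-cKO and 36437 to 37919 CPM in control.

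**Figure D5:**
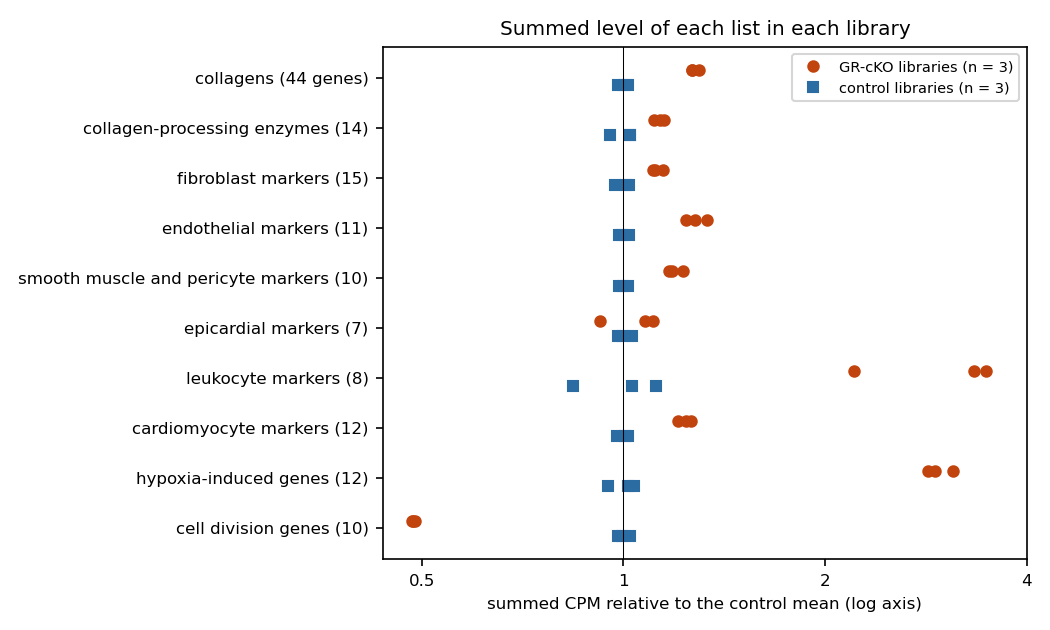
Summed CPM of each gene list in each library relative to the control mean, on a log axis, with GR-cKO as circles and control as squares (n = 3 each) and the number of genes in brackets. Collagens, fibroblast, endothelial, smooth muscle and cardiomyocyte markers all lie to the right of the control libraries in GR-cKO, hypoxia-induced genes further right and cell division genes to the left.

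Most of the listed genes known to be induced by hypoxia were higher in GR-cKO. Of 12 such genes 11 rose, where 7.63% of all genes tested passed as higher. The 12 had a median log2 fold change of 1.49. They summed to 1538, 1444 and 1410 CPM in GR-cKO libraries, against 470, 514 and 503 CPM in control libraries. Egln3, a prolyl hydroxylase that acts on the hypoxia-inducible factor, averaged 233 ± 13.6 CPM in GR-cKO and 20.5 ± 2.55 CPM in control, and Vegfa, a growth factor for vessels, 139 ± 8.78 CPM in GR-cKO and 64.9 ± 3.04 CPM in control. Car9 and Ndufa4l2, which are among the 11, passed the filter on low counts through the GR-cKO libraries: Car9 had 220, 175 and 132 counts in GR-cKO and 4, 8 and 6 in control, and Ndufa4l2 had 738, 748 and 567 in GR-cKO and 13, 8 and 3 in control. Ndufa4l2, Bnip3 and Ankrd37, all among the 11, overlap another gene on the opposite strand near the 3′ end, so their counts are uncertain. Adm averaged 53 ± 3.88 CPM in GR-cKO and 57.2 ± 2.68 CPM in control and did not pass. Among the modifying enzymes named above as induced by low oxygen, P4ha1, P4ha2, Plod1, Lox and Loxl2 rose. Plod2 did not pass (log2 fold change -0.05 ± 0.07, edgeR adjusted p = 0.762). The 10 cell division genes all fell, with a median log2 fold change of -1.06, where 7.19% of all genes tested passed as lower. The part of these pathways in the collagen result was not tested.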

How the data were processed

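The authors deposited 1 table of raw counts for each library, with whole numbers by gene, from QuantSeq 3′ mRNA libraries in forward orientation, per the labels' protocols. Per the submitters' processing notes, the build was GRCm38 and the tools included featureCounts 1.6.2, STAR 2.5.4a, cutadapt 1.16 and DESeq2 1.18.1. The sources used here give neither the strand setting nor the treatment of multi-mapping reads. Each table held 52550 Ensembl genes, 92 ERCC and 7 SIRV spike-in rows. Spike-ins took 1.98% to 2.36% of counts and were kept out of the library sizes and the tests. Symbols, biotypes and 1-based coordinates came from GENCODE M21.

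Genes were tested in R 4.3.3 with the quasi-likelihood test of edgeR 4.0.16, using TMM factors (0.980 to 1.024), the default filter, Benjamini-Hochberg adjustment over all genes and a threshold of 0.05. It was tested on simulated data. Fold changes are log2, GR-cKO over control, with SE and 95% intervals from the F statistic. Libraries of one group differed beyond sampling noise, with a mean chi-square of 7.58 to 15.4 per gene. Values in every library are printed for members past the threshold or with a mean of at least 20 CPM, and other members mostly by mean and SD or by range. Col26a1 is also printed in every library, chosen after its values were seen. The members and lists were chosen with earlier results of these data known. Alternatives were RLE factors, ERCC scaling, DESeq2 1.42.0, other filters, a replicate block, leaving out each library, and leaving out chromosomes X and Y.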

Additional observations from a re-analysis of the deposited data

How the results depend on the processing

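Over 13 alternatives, 16 of the 24 calls among the members held in every one and none reversed. The 8 others were Col5a1, Col11a1, Col4a1, Col4a4, Col6a1, Col8a1, Plod3 and Loxl3, and each was lost without at least 1 library, where fewer samples were tested. The number of collagens that fell was 3, and it was 1 with ERCC scaling and between 1 and 3 when 1 library was left out. ERCC scaling gave 522 genes lower over all genes, against 1035 with TMM, moved the median log2 fold change of all genes to 0.09, and gave 22 members higher and 1 lower. DESeq2, RLE factors and leaving out chromosomes X and Y each gave 22 members higher and 3 lower. The replicate numbers did not pair the libraries (correlation of deviations 0.00, 0.04 and 0.02 for numbers 1, 2 and 3, and 2 of the 3 GR-cKO libraries correlated best with their own number). With the replicate block 22 members were higher and 3 lower, and 2353 genes passed over all genes, against 2132 without it. Depth limits the scarce members, whose intervals are wide, so small changes in them were not detectable.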
